A study of Mus musculus with 9 samples.

Results

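The core and naive pluripotency transcription factors described here are 10 genes, Pou5f1, Sox2, Nanog, Klf4, Klf2, Klf5, Esrrb, Tfcp2l1, Tbx3 and Zfp42. They were taken by name and found in the expression table by the GRCm38 coordinates of their genes, and all 10 had a locus of their own among 11034 genes with one and 54913 loci in all. Expression was measured by RNA-seq in 9 mouse libraries, 3 each of spermatogonial stem cells (SSC), induced pluripotent stem cells from SSC (SSCiPSC) and induced pluripotent stem cells from fibroblasts (fiPSC). SSC were primary testis cells of postnatal day 6 pups, at passage 0, enriched with magnetic beads for the surface receptor Gfra1. SSCiPSC and fiPSC were cultured lines at passages 10 to 11 per the labels and at later passages per the study's methods, and fiPSC came from fibroblasts of male fetuses. All 3 groups carried the same alleles, Gt(ROSA)26Sortm1(rtTA*M2)Jae and Col1a1tm3(tetO-Pou5f1,-Sox2,-Klf4,-Myc)Jae, so that Pou5f1, Sox2, Klf4 and Myc could be switched on with doxycycline in every group. The labels name LIF and doxycycline in the medium, whereas the study's methods have doxycycline withdrawn before the iPSC were taken, and they describe the iPSC lines as clones picked from single colonies and purified for the antigen SSEA1. Fibroblasts before reprogramming were not analysed here. The study calls the libraries biological samples, but the labels do not say whether replicates came from separate animals or lines, so p-values measure the spread between these libraries, which may be technical.

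Pou5f1 (also called Oct4), Sox2 and Nanog bind DNA together at many enhancers of embryonic stem cells and keep one another's genes active. Klf2, Klf4, Klf5, Esrrb, Tfcp2l1 and Tbx3 form an outer circle that holds mouse cells in the naive state under LIF, and Zfp42 (Rex1) is a zinc finger gene widely used as a marker of that state. Spermatogonia also use Pou5f1, whereas Nanog and Sox2 are known to be silenced in the male germ line after birth.

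Values are FPKM, fragment numbers scaled to transcript length and library size, so that levels can be compared between genes per length. Depth differed between groups. The steps between low FPKM values put SSC replicates 1, 2 and 3 at about 1770894, 4631082 and 1384972 fragments and the 6 iPSC libraries at 13269390 to 17611877. The ratio of depth between an iPSC and an SSC library thus ran from 2.87 to 12.7. In bulk RNA, fewer cells of a type and less RNA per cell cannot be told apart. The germ cell markers Gfra1, at 37.7, 34.1 and 23.9 FPKM, and Dazl, at 194, 263 and 174 FPKM, were high in SSC. Gfra1 did not exceed 0.171 FPKM in any iPSC library, whereas Dazl was still at 15.3 to 42.3 FPKM there. Of the 10 germ line genes with a locus, 7 were lower in both iPSC groups than in SSC. The other 3, Etv5, Sall4 and Kit, were higher. The stem cell markers Alpl and Tdgf1 were at 83.8 to 116 FPKM and 214 to 392 FPKM in iPSC. Fut4, the third gene with a locus on that list of iPSC markers, ran lower in iPSC, at no more than 0.0772 FPKM, against 0.577, 0.735 and 1.29 FPKM in SSC. In SSC, Tdgf1 was listed at 0 in 2 libraries and at 0.209 FPKM in the other.

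The SSC fraction also held transcripts of other testis cells. Of the 10 Sertoli cell genes listed, 6 had a locus and together reached 1000, 993 and 817 FPKM in SSC, led by Clu at 632 FPKM on average, with none at 0. In iPSC the 6 still summed to 170 to 303 FPKM, led by Rhox5. Rhox5 went the other way from the rest, from 1.03, 1.77 and 1.98 FPKM in SSC to 162 to 296 FPKM in iPSC. The other 5 did not exceed 6.91 FPKM in any iPSC library. In SSC the 3 Leydig cell genes with a locus, of 7 listed, summed to 160, 124 and 236 FPKM, led by Cyp11a1. The 5 macrophage genes, of 6, summed to 41.2, 16.7 and 126 FPKM, led by C1qa, and the 7 fibroblast genes to 90.5, 83.4 and 263 FPKM, led by Col3a1. SSC replicate 3 was the highest for these last 3 lists. The 3 peritubular myoid genes with a locus, of 5, summed to 73.4, 68.2 and 60.0 FPKM in SSC, led by Acta2. The 5 endothelial genes, led by Pecam1, summed to 114, 55.7 and 92.8 FPKM in SSC and to 83.4 to 127 FPKM in iPSC. Of these 5, Pecam1 rose in both iPSC groups, and Cdh5, Kdr and Emcn fell, with mean SSC levels of 20.7, 12.6 and 4.54 FPKM. These last 3 met the filter described below only through SSC and had to be lower. Cdh5 and Kdr did not exceed 0.103 FPKM in any iPSC library, and Emcn was listed at 0 there. The part of these cells in the SSC levels of the 10 factors was not tested.

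All 10 factors were higher in every SSCiPSC and every fiPSC library than in every SSC library. In limma's test on log2(FPKM + 1) with Benjamini-Hochberg adjustment, 10 of 10 passed an adjusted p of 0.05 in both comparisons. The share of loci that passed as higher was 26.2% for SSCiPSC and 28.0% for fiPSC, and 35.5% and 36.6% of genes with their own locus. The share that passed as lower was 24.1% and 23.7% of loci, and 27.2% and 28.6% of genes. The filter asked for at least 1 FPKM in 3 of the 6 libraries, and Sox2, Nanog and Esrrb, with no SSC library at 1 FPKM, met it only through their iPSC libraries, where they had to be higher. Zfp42 reached 1 FPKM in 2 SSC libraries and needed an iPSC library to pass, and the other 6 passed with SSC alone. An exact two-sided permutation test of 3 against 3 libraries gave p = 0.1 for each factor, the smallest it can give. Both comparisons use the same SSC libraries.

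**Figure D1:**
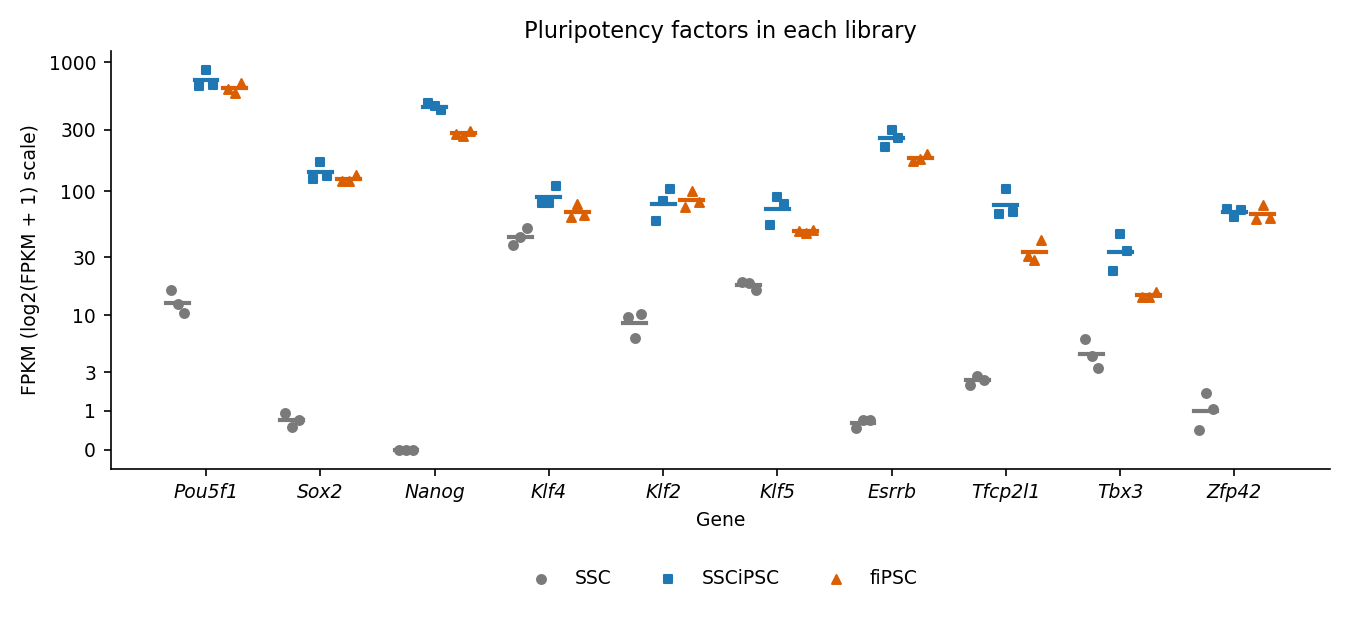
FPKM of the 10 factors in each library (vertical axis on a log2(FPKM + 1) scale, points are libraries, bars are means of the 3 log values). The SSC libraries lie below the iPSC libraries for each gene, with Klf4 the closest and Nanog at 0 in SSC.

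Nanog, a homeobox factor that stabilises pluripotency, was listed at 0 in SSC at its main locus and was the second highest factor in both iPSC groups. Its locus, chr6:122703014-122713625 on the plus strand, had no value above 0 in the 3 SSC libraries. It reached 483, 456 and 426 FPKM in SSCiPSC and 279, 270 and 295 FPKM in fiPSC. A count of 0 allows up to 3 fragments, or 0.621 to 2.08 FPKM in an SSC library depending on its depth. The lowest SSCiPSC library was thus at least 205-fold higher than the highest of these limits, and the lowest fiPSC library at least 130-fold. A second locus in the same gene, chr6:122714091-122714696, lies past the coding sequence and 89.6% of it is exon. No SSC library had a value above 0 there either, while SSCiPSC reached 502, 416 and 425 FPKM and fiPSC 259, 262 and 259 FPKM. With FPKM summed over the loci named for Nanog, the changes in log2(FPKM + 1) against SSC were 8.57 in SSCiPSC and 7.90 in fiPSC. At the main locus alone they were 8.83 and 8.14. Summing cannot lower the iPSC values, so a further locus named for Nanog was above 0 in SSC. Nanog has processed copies elsewhere in the genome, and how reads that fit several places were counted is not given in the sources used here.

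Esrrb, a nuclear receptor without a known ligand that acts downstream of Nanog, showed the next largest change. In SSC it was at 0.486, 0.689 and 0.716 FPKM. It reached 221, 298 and 260 FPKM in SSCiPSC and 170, 179 and 195 FPKM in fiPSC, so the groups did not overlap. The change on the log2(FPKM + 1) scale was 7.31 (SE 0.17, limma adjusted p = 6.8e-06) and 6.81 (SE 0.13, adjusted p = 4.13e-06). The SSC values rest on about 19 fragments over the 3 libraries, or 0.656 FPKM with a 95% Poisson interval of 0.395 to 1.02 that covers counting error only. The Esrrb locus is chr12:86424906-86521779 on the plus strand and covers 96.3% of the coding sequence.

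Sox2, the partner of Pou5f1 on composite sites, was also close to absent from SSC. Its values were 0.933, 0.50 and 0.715 FPKM in SSC, about 9 fragments in all, which gives 0.612 FPKM with a 95% Poisson interval of 0.280 to 1.16. SSCiPSC held 125, 169 and 131 FPKM and fiPSC 120, 120 and 134 FPKM. The changes were 6.37 (SE 0.19, limma adjusted p = 1.62e-05) and 6.20 (SE 0.15, adjusted p = 9.22e-06). The locus, chr3:34650413-34675987, runs far past the end of Sox2, where the long RNA Sox2ot overlaps it, and reads of both cannot be told apart. A separate locus at the start side, chr3:34649869-34650309, held 2.0, 0.765 and 0 FPKM in SSC, 275, 322 and 285 FPKM in SSCiPSC and 241, 262 and 265 FPKM in fiPSC.

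Pou5f1 was the only one of the 3 core factors with a clear level in SSC. It stood at 16.2, 12.4 and 10.4 FPKM there, the third highest of the 10 factors. In SSCiPSC it reached 658, 877 and 665 FPKM and in fiPSC 622, 579 and 695 FPKM, the highest of the 10 in both. The change was 5.72 (SE 0.20, limma adjusted p = 2.57e-05) in SSCiPSC and 5.52 (SE 0.17, adjusted p = 1.89e-05) in fiPSC, and the ratio of mean FPKM was 56.4 and 48.6. The locus is chr17:35505084-35510670 on the plus strand and holds the whole coding sequence.

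Zfp42 rose from near 0. Its SSC values were 0.413, 1.73 and 1.05 FPKM, about 17 fragments in all, which gives 1.30 FPKM with a 95% Poisson interval of 0.758 to 2.08. It reached 72.8, 62.0 and 71.1 FPKM in SSCiPSC and 59.9, 77.3 and 61.0 FPKM in fiPSC. The changes were 5.12 (SE 0.27, limma adjusted p = 7.52e-05) and 5.06 (SE 0.27, adjusted p = 7.67e-05). Its locus is chr8:43295005-43307069 on the minus strand.

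Tfcp2l1, a grainyhead-type factor that responds to LIF, rose from a low level. SSC held 2.2, 2.74 and 2.47 FPKM, SSCiPSC 65.9, 104 and 69.0 FPKM and fiPSC 30.7, 28.7 and 41.3 FPKM. The changes were 4.51 (SE 0.22, limma adjusted p = 6.05e-05) and 3.30 (SE 0.19, adjusted p = 8.84e-05). Tbx3, a T-box repressor that promotes self-renewal, went from 6.20, 4.34 and 3.34 FPKM in SSC to 23.4, 45.8 and 33.8 FPKM in SSCiPSC and 14.4, 14.2 and 15.6 FPKM in fiPSC. In both genes, as also in Nanog, Klf4, Klf5 and Esrrb, every fiPSC library lay between the SSC and the SSCiPSC libraries. The changes of Tbx3 were 2.63 (SE 0.31, limma adjusted p = 0.000742) and 1.51 (SE 0.22, adjusted p = 0.00182). Their loci are chr1:118627872-118678039 and chr5:119640038-119684562, both plus strand.

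The 3 Krüppel-like factors, which bind GC-rich sites and can replace one another in part, had the highest starting levels along with Pou5f1. Klf2 stood at 9.75, 6.41 and 10.2 FPKM in SSC and reached 58.2, 83.4 and 104 FPKM in SSCiPSC and 75.5, 99.9 and 82.5 FPKM in fiPSC. Klf5 went from 19.1, 18.5 and 16.3 FPKM to 54.3, 89.1 and 78.6 FPKM in SSCiPSC and 48.5, 46.4 and 49.4 FPKM in fiPSC. Neither gene had an overlap between SSC and iPSC, and in Klf5 the fiPSC libraries spread by only 1.54 FPKM (SD, n = 3). The changes of Klf2 were 3.07 (SE 0.27, limma adjusted p = 0.000289) and 3.17 (SE 0.20, adjusted p = 0.000123), and those of Klf5 1.96 (SE 0.21, adjusted p = 0.000535) and 1.37 (SE 0.11, adjusted p = 0.000206). Klf2 lies at chr8:72318881-72321708 and Klf5 at chr14:99298660-99315531, both plus strand.

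Klf4 changed least. It was already the highest of the 10 factors in SSC, at 37.7, 43.9 and 51.0 FPKM, and stood at 80.2, 79.9 and 110 FPKM in SSCiPSC and 62.7, 79.6 and 64.8 FPKM in fiPSC. The groups did not overlap, but mean FPKM was only 2.04 and 1.56 times that of SSC. The changes were 1.01 (SE 0.19, limma adjusted p = 0.00468) and 0.63 (SE 0.15, adjusted p = 0.0148). After quantile normalization they fell to 0.38 (adjusted p = 0.175) and 0.15 (adjusted p = 0.536), so the call for Klf4 does not hold on that scale. Without SSC replicate 3, the library with the most macrophage and fibroblast transcripts and the highest Klf4 in SSC, the changes were 1.11 (adjusted p = 0.00638) and 0.74 (adjusted p = 0.0101). Its locus is chr4:55527138-55532463 on the minus strand.

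**Figure D2:**
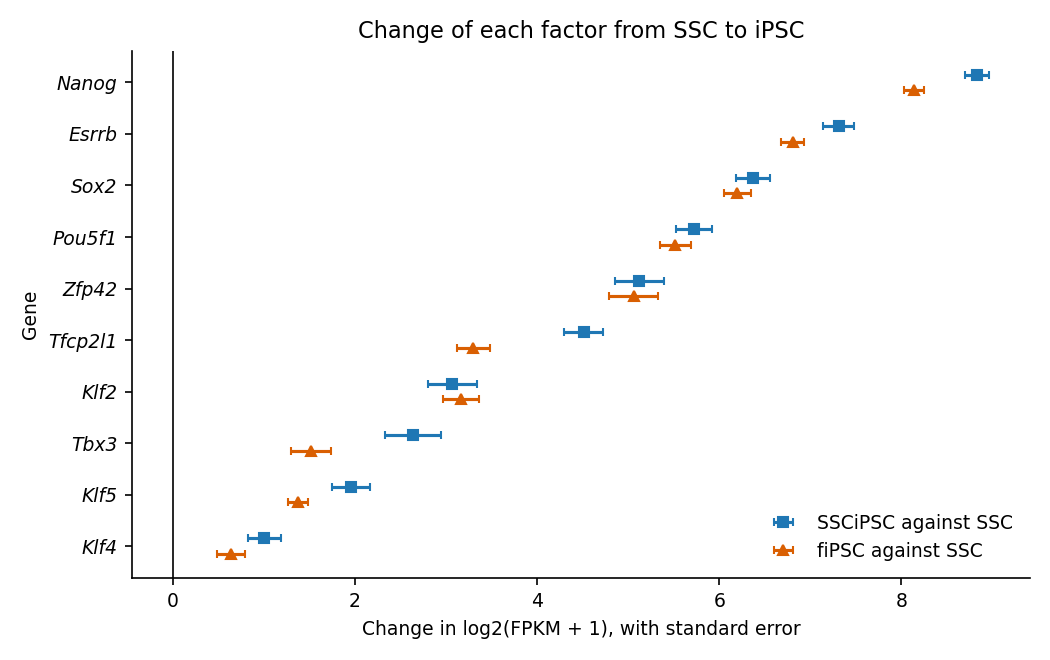
Change of each factor from SSC to SSCiPSC (squares) and to fiPSC (triangles) in log2(FPKM + 1), with the standard error from limma (3 libraries a group). The changes run from 8.83 for Nanog, whose size depends on the pseudocount of 1 since SSC is at 0, to 0.63 for Klf4 in fiPSC.

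The order of the factors also differed between SSC and iPSC. In SSC it ran Klf4, Klf5, Pou5f1, Klf2, Tbx3, Tfcp2l1, Zfp42, Sox2, Esrrb and Nanog, from 44.2 ± 6.67 FPKM (SD, n = 3) for Klf4 down to 0. Neighbours overlapped only for Zfp42 with Sox2 and for Sox2 with Esrrb. In SSCiPSC it began with Pou5f1 at 733 ± 125 FPKM, Nanog at 455 ± 28.7, Esrrb at 260 ± 38.2 and Sox2 at 142 ± 23.5, none of which overlapped its neighbour. The same 4 genes led fiPSC in the same order without overlap, at 632 ± 58.8, 281 ± 12.4, 182 ± 12.4 and 124 ± 7.84 FPKM. Klf4, Klf2, Tfcp2l1, Klf5 and Zfp42 followed in SSCiPSC between 90.1 and 68.7 FPKM, each overlapping the next, and Tbx3 came last in both iPSC groups.

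Pou5f1, Sox2 and Klf4 are 3 of the 4 factors of the inducible cassette, and FPKM does not separate cassette transcripts from those of the cells' own genes. Myc, the other cassette factor, was at 55.6, 49.1 and 69.3 FPKM in SSC, 2.81, 19.0 and 4.11 FPKM in SSCiPSC and 7.16, 4.49 and 9.07 FPKM in fiPSC. It was lower in every iPSC library than in SSC (limma adjusted p = 0.0067 for SSCiPSC and 0.00029 for fiPSC). The part of the cassette in the levels of Pou5f1, Sox2 and Klf4 was not tested.

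Between fiPSC and SSCiPSC no factor passed the adjusted threshold, but 6 of 10 had groups that did not overlap. Nanog, Klf4, Klf5, Esrrb, Tfcp2l1 and Tbx3 were lower in every fiPSC library than in every SSCiPSC library (exact permutation p = 0.1 for each). Of all loci tested 9.23% were lower in fiPSC without overlap and 9.41% higher, and of genes with their own locus 15.2% and 8.85%. Pou5f1, Sox2, Klf2 and Zfp42 overlapped. By limma's adjusted p 0 of 10 factors passed, where 0.0678% of loci and 0.0435% of genes did. At an unadjusted p of 0.05, 5 of the 10 passed, and 11.7% of all loci tested did.

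Tfcp2l1 and Tbx3 differed most in size. Mean Tfcp2l1 was 33.5 ± 6.76 FPKM in fiPSC and 79.6 ± 21.2 in SSCiPSC, a difference of -1.21 on the log2(FPKM + 1) scale. Its SE was 0.21 and its limma adjusted p = 0.177, with an unadjusted p of 0.000695. Mean Tbx3 was 14.7 ± 0.729 FPKM in fiPSC and 34.4 ± 11.2 in SSCiPSC, a difference of -1.12. Its SE was 0.23 and its limma adjusted p = 0.204, with an unadjusted p of 0.00161. The long last exon of Tfcp2l1 is split into 5 further loci past its coding sequence, between chr1:118678397 and 118685241. Each of the 5 was lower in every fiPSC library than in every SSCiPSC library, for example 27.5, 24.7 and 35.5 against 62.0, 103 and 65.8 FPKM at chr1:118683692-118685241.

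Nanog had the smallest p of the 10. Mean Nanog was 281 ± 12.4 FPKM in fiPSC and 455 ± 28.7 in SSCiPSC, 0.618 times as high. The difference was -0.69, with an SE of 0.10, a limma adjusted p = 0.121 and an unadjusted p of 0.00026. With FPKM summed over the loci named for the same gene, over fewer features tested, the difference was -0.67 and passed (adjusted p = 0.0279). Klf5 (-0.58, SE 0.18, adjusted p = 0.32) and Esrrb (-0.51, SE 0.13, adjusted p = 0.27) had unadjusted p of 0.0147 and 0.00679. With summed loci the difference of Esrrb was -0.38 (limma adjusted p = 0.224), and its groups overlapped. Klf4 (-0.37, SE 0.16, adjusted p = 0.439) had an unadjusted p of 0.0572, and its difference was -0.22 without SSCiPSC replicate 3.

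The other 4 factors overlapped between fiPSC and SSCiPSC. The difference was -0.20 for Pou5f1 (SE 0.15, limma adjusted p = 0.651) and -0.17 for Sox2 (SE 0.14, adjusted p = 0.667). Without SSCiPSC replicate 2 these were -0.07 and -0.04. That of Zfp42 was -0.06 (SE 0.14, adjusted p = 0.901) and that of Klf2, the only one of the 10 with a higher mean in fiPSC, 0.10 (SE 0.22, adjusted p = 0.902). The start-side locus of Sox2 was lower in every fiPSC library, unlike the main Sox2 locus. SSCiPSC replicate 2 was the highest of its group for Pou5f1, Sox2, Klf5, Esrrb, Tfcp2l1 and Tbx3.

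**Figure D3:**
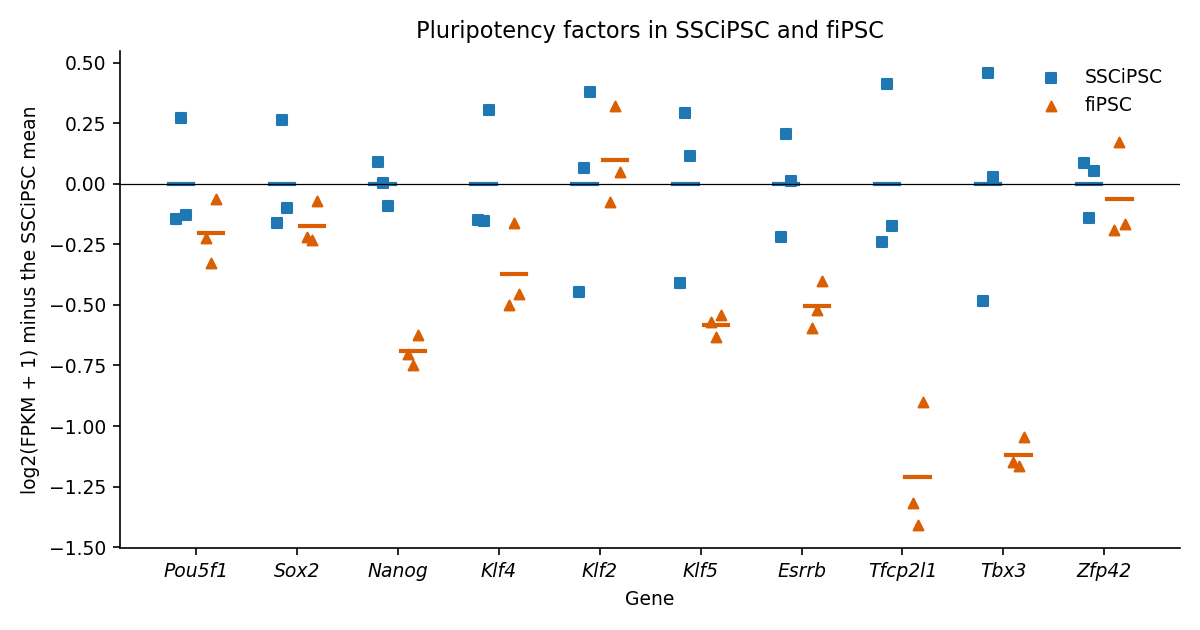
log2(FPKM + 1) of the 10 factors in the 6 iPSC libraries, minus the SSCiPSC mean of each gene (points are libraries, bars are group means). The 3 fiPSC points lie below the 3 SSCiPSC points for Nanog, Klf4, Klf5, Esrrb, Tfcp2l1 and Tbx3, by 1.21 on average for Tfcp2l1.

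The wider network was read from lists of known partners and targets. Of 24 partners, 20 had a locus of their own, and 15 rose and 2 fell in both SSCiPSC and fiPSC against SSC. The median change of the 20 was 1.84 and 1.40, beside 0.19 and 0.17 over all genes with a locus, of which 35.5% and 36.6% passed as higher and 27.2% and 28.6% as lower. Of the 20, Prdm14 and Gbx2 met the filter only through iPSC. Trim28, a corepressor, was the highest partner in all 3 groups, at 127, 148 and 114 FPKM in SSC, 468, 1029 and 613 FPKM in SSCiPSC and 534, 391 and 658 FPKM in fiPSC. The partners that fell were Myc and Stat3, the factor that carries the LIF signal, at 59.2, 60.5 and 61.9 FPKM in SSC and 16.5 to 30.9 FPKM in iPSC (limma adjusted p = 0.00092 and 0.00026). Zfx, Zfp281 and Thap11 did not pass in either comparison.

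No partner passed between fiPSC and SSCiPSC, and 6 of 20 were lower in fiPSC without overlap and none higher, beside 15.2% and 8.85% of all genes with a locus. Chosen after their values were seen, these were Prdm14, Nr0b1, Nr5a2, Stat3, Zfx and Tcl1. Prdm14, which shields naive cells from differentiation signals, was at 20.6, 14.9 and 16.1 FPKM in SSCiPSC and 8.71, 12.1 and 10.6 FPKM in fiPSC. Nr0b1 was at 45.4, 65.5 and 58.0 against 26.5, 23.6 and 33.9 FPKM.

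Of 18 targets, 10 had a locus, and 9 rose in SSCiPSC and 10 in fiPSC, with median changes of 5.26 and 5.03. Over all genes with a locus, 35.5% and 36.6% passed as higher and the median changes were 0.19 and 0.17. Tdgf1, Gdf3, Nodal and Tdh, 4 of the 10, had no SSC library at 1 FPKM and could pass the filter only by being higher in iPSC. The largest rises were of Tdgf1, the Nodal co-receptor (8.04 and 8.36, limma adjusted p = 2.1e-05 and 1.8e-06), Tdh, an enzyme of threonine breakdown (6.79 and 6.20), and Tet1, which oxidises methylated cytosine (6.40 and 6.33). Trim71 was the highest target in SSC, at 37.6, 40.8 and 30 FPKM, and did not pass in SSCiPSC (adjusted p = 0.059). Upp1 led in SSCiPSC at 378 FPKM on average and Tdgf1 in fiPSC at 349 FPKM. Between fiPSC and SSCiPSC no target passed. Without overlap, 2 of 10 were higher in fiPSC (Dppa3, Nodal) and 2 lower (Spp1, Fbxo15), named after their values were seen, beside 8.85% and 15.2% of all genes with a locus. Dppa3 was at 6.06, 11.9 and 5.50 FPKM in SSCiPSC and 29.2, 14.7 and 33.5 FPKM in fiPSC (adjusted p = 0.22).

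Relatives of the factors were read by family. Of the 13 other Klf genes with a locus, 11 were tested in SSCiPSC against SSC, and 2 rose (Klf9, Klf15) and 3 fell (Klf6, Klf7, Klf13), beside 35.5% of all genes that passed as higher and 27.2% as lower. In fiPSC 12 were tested, with 3 rising, now with Klf10, and 4 falling, now with Klf8, beside 36.6% and 28.6% of all genes. Whether Klf10 and Klf8 differ between the 2 comparisons was not tested. Klf6, at 119, 103 and 156 FPKM the highest Klf in SSC, fell to 16.0 to 35.5 FPKM in iPSC, and Klf7 fell from 29.1 to 37.9 FPKM in SSC to 2.37 to 5.77 FPKM. By mean FPKM, Klf4, Klf2 and Klf5 were the highest Klf genes in SSCiPSC. In fiPSC Klf2 and Klf4 led, and Klf10 at 57.5 FPKM and Klf9 at 57.2 FPKM stood above Klf5 at 48.1 FPKM. Between fiPSC and SSCiPSC none of the 12 passed, and Klf7 was higher and Klf8 and Klf11 lower in every fiPSC library, beside 8.85% and 15.2% of all genes with a locus.

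**Figure D4:**
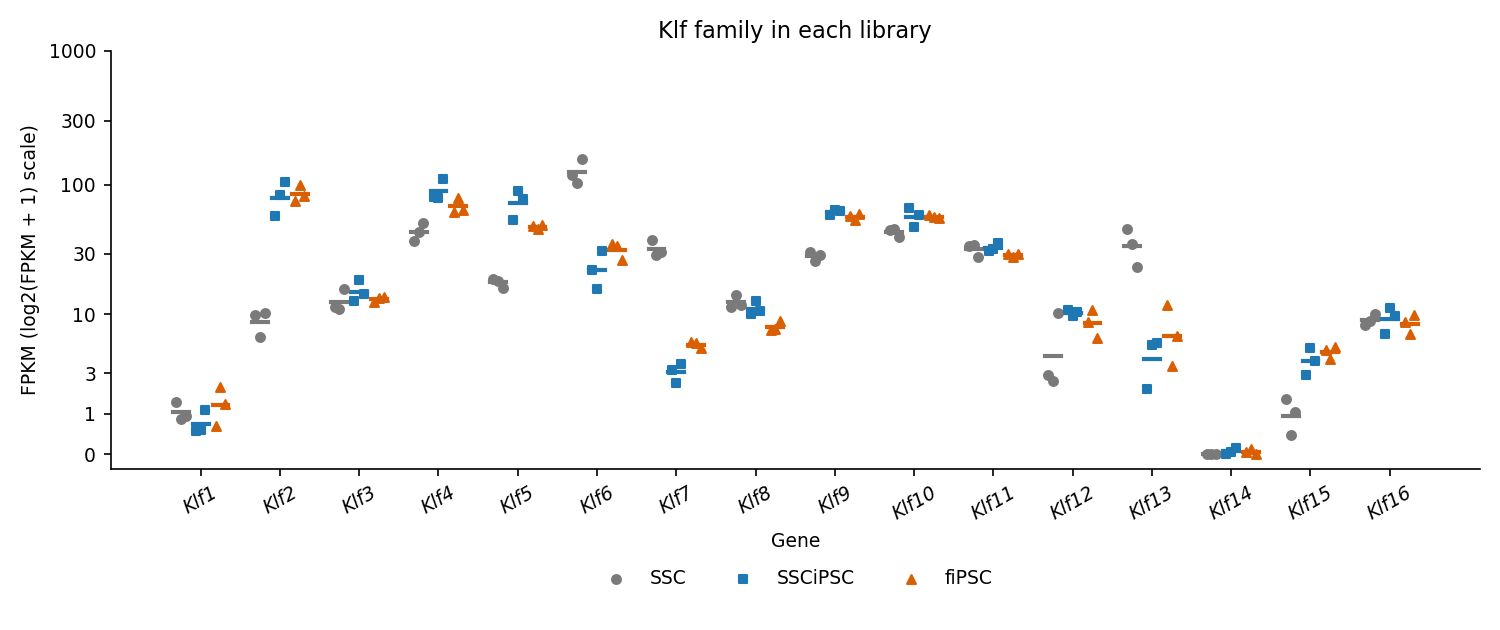
FPKM of 16 Klf genes in each library (log2(FPKM + 1) scale, points are libraries, bars are means of the log values). Klf2, Klf4 and Klf5 rise from SSC to iPSC while Klf6, Klf7 and Klf13 fall.

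Of 7 other Sox genes with a locus and tested, 6 fell in both iPSC groups and 1 rose, where 27.2% and 28.6% of all genes passed as lower. Sox8, Sox9 and Sox18 in both comparisons, and Sox7 in fiPSC, met the filter only through SSC and had to be lower. Sox9, which acts downstream of Sry in Sertoli cells, went from 30.5, 28.0 and 32.1 FPKM in SSC to at most 0.114 FPKM in iPSC (changes of -4.93 and -4.85, limma adjusted p = 4.2e-05 and 2.7e-05). Sox4 fell from 23.7 to 31.2 FPKM to between 0.793 and 3.99 FPKM. Sox15, a close relative of the Sox2 group, rose from 0.371, 1.10 and 0 FPKM to between 6.10 and 11.3 FPKM. Among the POU genes, Pou2f1, which binds the same octamer as Pou5f1, stood at 18, 22 and 10.8 FPKM in SSC and 22.4 to 25.3 FPKM in iPSC (adjusted p = 0.13 in both). Pou2f3 and Pou4f2 rose in both comparisons and met the filter only through iPSC. Of the 3 grainyhead genes related to Tfcp2l1, Grhl3 rose in both and Grhl1 fell in both, and Grhl2 was above SSC in every iPSC library and passed in fiPSC (adjusted p = 0.0058) but not in SSCiPSC (adjusted p = 0.11). Of the T-box genes Tbx2, which met the filter only through SSC, fell from 4.90 to 5.61 FPKM in SSC to at most 0.395 FPKM in iPSC, Eomes passed as higher in SSCiPSC (adjusted p = 0.035) and not in fiPSC (adjusted p = 0.085), and Tbx6 passed in neither. Yy1, the closest relative of Zfp42 listed, did not pass either, at 13.5 to 16.8 FPKM in SSC and 16.9 to 26.1 FPKM in iPSC.

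Of 12 genes of the primed state listed, 9 had a locus and 6 were tested, with 5 higher and 1 lower in SSCiPSC and 4 higher and 1 lower in fiPSC. Over all genes 35.5% and 36.6% passed as higher and 27.2% and 28.6% as lower, and Otx2 met the filter only through iPSC, as T did only through SSC in the comparison with fiPSC. Otx2, which drives the exit from naive pluripotency, was listed at 0 in 2 SSC libraries and at 0.558 FPKM in the other, and stood at 24.5, 21.3 and 17.3 FPKM in SSCiPSC and 34.2, 24.6 and 38.6 FPKM in fiPSC. Zic2 led the list in SSCiPSC at 23.0 FPKM and Lef1 in SSC at 6.26 FPKM. Fgf5, a marker of primed cells, stayed at 1.40 FPKM or less in every library. T fell to at most 1.04 FPKM.

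Outside the 10 factors, the 5 named genes whose log2(FPKM + 1) profile was most like that of Nanog over the 9 libraries were Paics, Fbxo15, St13, Fbxo5 and Exosc2, each with a Pearson r of 0.999 among 5298 genes compared. Much of any such r is the step from SSC to iPSC, which the libraries share. Fbxo15, an F-box gene known as a Pou5f1 and Sox2 target, was at 2.71, 3.27 and 2.48 FPKM in SSC, 195, 158 and 158 FPKM in SSCiPSC and 116, 116 and 128 FPKM in fiPSC. Paics, an enzyme of purine synthesis, was at 46.4, 44.8 and 39.6, then 453, 439 and 406, then 359, 347 and 365 FPKM. Among the factors, r with Nanog ran from 0.870 for Klf4 to 0.999 for Esrrb.

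Promoter windows of 250 bases before the RefSeq start were at hand for 8 of the 10 factors, 11 windows in all, from RefSeq (GRCm38.p6). They are shown because factors of this network bind motifs that can be read in them, and the 4 printed hold a match to the octamer core or the Klf motif. Capitals mark the octamer core TTTGCAT (reverse ATGCAAA), bound by POU factors, the Sox motif ACAATG (reverse CATTGT) and the Klf motif GGGCGTGG (reverse CCACGCCC). All are 5′ to 3′ on the strand of the gene, at chr6:122707239-122707488 (plus), chr3:34649745-34649994 (plus), chr8:43307010-43307259 (minus) and chr1:118627695-118627944 (plus).
Nanog: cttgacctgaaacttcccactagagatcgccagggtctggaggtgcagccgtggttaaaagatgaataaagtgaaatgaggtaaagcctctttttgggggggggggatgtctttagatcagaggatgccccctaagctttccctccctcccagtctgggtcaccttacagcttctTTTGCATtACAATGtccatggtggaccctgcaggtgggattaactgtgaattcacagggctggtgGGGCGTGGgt
Sox2: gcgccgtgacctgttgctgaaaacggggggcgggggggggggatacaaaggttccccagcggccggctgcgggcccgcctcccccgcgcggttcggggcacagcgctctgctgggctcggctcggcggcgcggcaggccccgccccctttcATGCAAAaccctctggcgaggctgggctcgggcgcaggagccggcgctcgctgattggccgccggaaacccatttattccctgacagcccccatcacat
Zfp42: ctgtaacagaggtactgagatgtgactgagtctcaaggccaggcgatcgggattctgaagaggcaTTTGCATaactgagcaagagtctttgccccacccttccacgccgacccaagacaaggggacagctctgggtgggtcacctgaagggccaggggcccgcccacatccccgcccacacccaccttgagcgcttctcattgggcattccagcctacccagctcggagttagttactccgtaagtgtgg
Tfcp2l1: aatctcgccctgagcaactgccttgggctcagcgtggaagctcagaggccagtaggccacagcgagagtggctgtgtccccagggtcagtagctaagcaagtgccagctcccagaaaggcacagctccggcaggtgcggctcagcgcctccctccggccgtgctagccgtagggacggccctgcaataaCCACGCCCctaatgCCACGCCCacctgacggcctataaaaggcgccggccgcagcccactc

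In Nanog the octamer core, 75 to 69 bases before the start, is followed after 1 base by the Sox motif at 67 to 62 bases, and a Klf motif lies 10 to 3 bases before the start. Zfp42 holds the octamer core at 185 to 179 bases and Sox2 its reverse at 99 to 93 bases. Tfcp2l1 holds the reverse Klf motif at 61 to 54 and at 47 to 40 bases. A window of Pou5f1 that lies inside the gene, chr17:35508557-35508806 and not printed, holds the Sox motif at 158 to 153 bases. The window at the start of the Pou5f1 gene, chr17:35505782-35506031, holds none of the motifs searched. Over both strands the octamer core was in 4 of the 11 windows, from 3 of the 8 factors, and in 4.12% of all 32851 windows. The Sox motif was in 3 of the 11, from 2 factors, and in 10.7% of all. The Klf motif was in 3 of the 11, from 2 factors, and in 4.79% of all. Nanog has overlapping windows that hold the same matches. The Esrrb motif TCAAGGTCA (reverse TGACCTTGA) was in no window of the 8 and in 0.387% of all. A match is a run of letters only, and no binding was measured here.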

How the data were processed

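Total RNA of 9 libraries (3 SSC, 3 SSCiPSC, 3 fiPSC) was depleted of ribosomal RNA and made into libraries with a stranded mRNA kit, per the labels. Per the labels, the authors used Trimmomatic 0.32, TopHat2 2.0.9, Bowtie2 2.1.0, Cufflinks 2.2.1 and Cuffdiff and the build mm9, and deposited FPKM per locus (under an RPKM heading). The coordinates match GRCm38 genes instead, so loci were named by Gencode vM21 on GRCm38. No scaling between libraries is given in the sources used here.

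Of 54914 loci, 1 with a blank value was left out. A locus stood for a coding gene if it covered at least 50% of its span and of its longest coding sequence, on the same strand where it had one (38550 had none), and no other coding gene at least 0.2 times as long. The locus with the highest mean was used. Depth was estimated from the steps of FPKM in loci of 600 to 6000 bp without strand, where at least 99.97% of values lay within 0.05 of a whole fragment. No count test was run, since the FPKM are not counts and the steps hold only for these loci. Estimated fragments of a factor assume its annotated exons inside the locus.

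Groups were compared with limma 3.58.1 in R 4.3.3 (moderated variances with a trend) on log2(FPKM + 1), with 6 libraries in each fit, for loci that reached 1 FPKM in at least 3 of these, with Benjamini-Hochberg adjustment over all loci and a threshold of 0.05. This scale understates the change of low genes. Single factors were also tested by exact two-sided permutation. Python 3.11.15 with pandas 2.3.3, scipy 1.17.1 and matplotlib 3.10.9 made the tables and plots.

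The factors and gene lists were chosen with earlier results of these data known. By rule the text names the 10 factors, of each list the genes with the 3 largest rises and falls past the threshold and the highest mean, any gene of a factor's family, any cell marker and the 5 genes most like Nanog (mean of at least 10 FPKM in both iPSC groups). The requirement on coding sequence, and keeping the tested loci fixed when a library was left out, were chosen after seeing the data. Alternatives were other pseudocounts, filters, scalings and fits, FPKM summed over loci, and each library left out in turn.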

Additional observations from a re-analysis of the deposited data

How the results depend on the processing

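Each of the 10 factors kept its direction against SSC under all 16 alternatives, and 10 of 10 passed except with quantile normalization (9 in both comparisons, without Klf4) and with an adjusted p below 0.01 (9 for fiPSC, again without Klf4). Between fiPSC and SSCiPSC the count past the threshold was 0 except with FPKM summed over the loci of a gene, where 1 (Nanog) passed. The number of factors lower in every fiPSC library, a count chosen after seeing the data, was 5 with quantile normalization (without Klf4) or summed loci (without Esrrb). It ranged from 6 to 8 with a library left out, where it can only stay the same or rise because fewer libraries are compared. Differences near 0 changed sign. That of Zfp42 was 0.0428 with quantile normalization and ranged from -0.18 to 0.00322 with a library left out, and that of Klf2 ranged from -0.12 to 0.29. The cause of these changes was not tested. With median-ratio scaling the median change over all loci went from 0.11 to 0.28 (SSCiPSC against SSC) and from 0.17 to 0.31 (fiPSC against SSC), on the log2 scale.

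Replicate numbers did not pair the libraries. Deviations of same-numbered libraries correlated by -0.286 to 0.0216, and not every library correlated best with its own number. With the replicate block, 10, 10 and 0 factors passed in the 3 comparisons, and the loci past the threshold between fiPSC and SSCiPSC went from 23 to 6. That count ranged from 6 to 20 with a library left out, was 11 with all 9 libraries in the fit or a mean of at least 5 FPKM and 9 at an adjusted p below 0.01, and 51 of 9538 genes passed with summed loci. SSC libraries were shallower than iPSC libraries, so low SSC levels of Nanog, Sox2, Esrrb and Zfp42 are known only within the limits given.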

Other observations

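Of 12 germ line genes listed, 10 had a locus, and 7 fell and 3 rose in both SSCiPSC and fiPSC against SSC (limma, adjusted p below 0.05, in comparisons that share the SSC libraries). Over all genes with a locus 27.2% and 28.6% passed as lower and 35.5% and 36.6% as higher. Gfra1, Ret and Zbtb16 met the filter only through SSC and had to be lower. Zbtb16, a repressor that maintains spermatogonial stem cells, went from 72.0, 77.4 and 51.9 FPKM in SSC to at most 0.157 FPKM in iPSC. Dazl, an RNA-binding protein of germ cells, was at 34.9, 42.3 and 36.2 FPKM in SSCiPSC and 17.4, 15.3 and 25.8 FPKM in fiPSC, below its SSC level in both. The genes that rose were Etv5, Sall4 and Kit. Kit, a receptor of differentiating spermatogonia, was at 10.1, 10.1 and 8.86 FPKM in SSC, 42.4, 47.5 and 48.4 FPKM in SSCiPSC and 23.9, 27.8 and 26.0 FPKM in fiPSC. Between fiPSC and SSCiPSC 7 of the 10 were tested and none passed. Without overlap, Dazl and Kit were lower in fiPSC (adjusted p = 0.2 and 0.1) and Nanos3 higher (adjusted p = 0.39), beside 15.2% of genes with a locus that were lower and 8.85% higher.

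Of 15 loci within 1000 bp outside the 10 genes, 10 were below 10 FPKM in every iPSC library. The one with the highest FPKM was 131 bp long, past the end of Zfp42 at chr8:43294581-43294711. It was listed at 0 in SSC, at 306, 50.6 and 350 FPKM in SSCiPSC and at 229, 274 and 299 FPKM in fiPSC. Its length is below the 145 to 160 bp that separated locus length from the length behind FPKM in these libraries.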
